A study of Rattus norvegicus with 8 samples.

Results

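Ribosomal proteins are the protein parts of the 2 kinds of ribosome in an animal cell. Cytosolic ribosomes translate the mRNAs of nuclear genes, and their proteins are named RPL in the large 60S subunit and RPS in the small 40S subunit. Mitochondrial ribosomes (mitoribosomes) translate only the mRNAs of the mitochondrial genome, which encode core subunits of the respiratory chain and ATP synthase, and their proteins (MRPL, MRPS) are made from nuclear genes in the cytosol and imported. Heart muscle cells, which are rich in mitochondria and make more cytosolic ribosomes as they grow, depend on both. The genes were chosen by name, Rpl or Rps for cytosolic proteins without the Rps6k kinases, and Mrpl or Mrps for mitochondrial ones. This gave 174 genes of the 12784 in the table, 100 cytosolic and 74 mitochondrial, with 217 transcripts.

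The cells were neonatal rat ventricular cardiomyocytes (NRVCMs), the contractile cells of newborn rat ventricles in primary culture. They were enriched on a Percoll gradient, cultured for 24 h and then transduced for 72 h with an adenovirus that carried LacZ, a bacterial enzyme used as the control, or HectD3, an E3 ubiquitin ligase. Each virus had 4 RNA-seq libraries of polyadenylated RNA (all 8 carried a virus), and the rat strain is Wistar in the methods and Sprague Dawley in the reporting summary. The values are FPKM, fragment numbers scaled by transcript length and by library size, so levels of different genes can be set side by side.

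Hectd3 was at 6.18 to 7.89 FPKM in the LacZ libraries and at 547, 915, 590 and 161 FPKM in HectD3 1 to 4, so HectD3 4 held the least of the transgene. The first principal component of all genes, with 58.4% of the variance, set LacZ 1, LacZ 2 and HectD3 4 (-40.8, -27.1 and -13.4) apart from the other 5 libraries (9.01 to 18.8). The summed cardiomyocyte markers (15 of 16 in the table, none under 0.5 FPKM) were lowest in the same 3 libraries, at 22100 to 23600 FPKM against 26340 to 31220 FPKM in the others. Much of this gap lay in the actin gene Actc1 (3229, 3149 and 4853 FPKM in LacZ 1, LacZ 2 and HectD3 4, 7084 to 9411 in the others), and some markers went the other way: the troponin gene Tnni3 was at 1589, 1411 and 1358 FPKM in these 3 libraries and at 1133 to 1274 in the others, and Pln, which encodes phospholamban, at 1371, 1348 and 1447 against 1068 to 1160 FPKM. The 8 markers of smooth muscle cells and pericytes also had their lowest sums there, at 2299, 2892 and 2665 FPKM against 3392 to 4589 FPKM. Much of this gap lay in Acta2 (865, 1196 and 1066 FPKM in LacZ 1, LacZ 2 and HectD3 4, 1542 to 2324 in the others). Not all of these markers followed. Rgs5 was at 51.4, 59.4 and 55.5 FPKM against 47.0 to 54.3 FPKM, and Myh11 was highest in LacZ 2 (34.8 FPKM) and lowest in HectD3 4 (15.8 FPKM). Markers of further cells were present: fibroblast markers (11 of 13 in the table) summed to 1805 to 2069 FPKM with LacZ and 1798 to 2051 with HectD3, and macrophage markers (10 of 12) to 360 to 476 and 402 to 518 FPKM. In mixed cultures, fewer cells of a type and less RNA per cell cannot be told apart. The parts of these markers and of the transgene level in what follows were not tested.

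Of the 100 cytosolic genes, 46 carry the standard name of a 60S protein, 29 that of a 40S protein, and 25 are copies, paralogs or other genes that the name rule takes in. Among these 25 are 8 named as pseudogenes (-ps) and Rps19bp1, which binds a 40S protein and is not itself one. The mitochondrial set holds 45 large-subunit and 29 small-subunit genes. All but Rpl30l1, a copy with a mean of 0.470 FPKM, reached a mean of 0.5 FPKM and were tested. Rps13, Rps26 and the muscle paralog Rpl3l had no entry under these names in the table, so they were not analysed here.

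Many cytosolic ribosomal protein mRNAs begin with a TOP motif (5′ terminal oligopyrimidine), a C at the start followed by a run of pyrimidines through which mTOR signalling controls their translation. Promoters of mitoribosomal genes often hold sites of ETS factors, NRF1 and YY1, which couple nuclear genes to mitochondria. The sequences below are windows at the start of some of these genes or around a motif, and the counts that follow give how often each class held such features. They are from RefSeq, build GRCr8, in a window of 30 bases, with the transcript strand written 5′ to 3′. For the cytosolic genes, capitals mark the longest pyrimidine run led by a C within 10 bases of the annotated start. A run that begins further upstream, as in Rpl21, is left in small letters. The cytosolic windows run from 15 bases before the annotated start to 15 bases from it on, and are those of 4 of the 5 genes with the highest level (Rps29 has no entry), and of Rps23, which had the longest run.
Rpl41, 60S, chr7:1563483-1563512, minus strand: ggcggctcggaagtgacgacaccaagcacg
Rps27, 40S, chr2:177964592-177964621, minus strand: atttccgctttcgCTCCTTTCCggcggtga
Rplp0, 60S stalk, chr12:46718376-46718405, minus strand: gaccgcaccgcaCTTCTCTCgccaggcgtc
Rpl21, 60S, chr12:13386139-13386168, minus strand: ttcctttccgccggggcagccatCTTCCag
Rps23, 40S, chr2:23814502-23814531, plus strand: tgggtccttcctgCCTCTCTTCTCTCTTTC

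For 4 mitoribosomal genes, capitals mark a motif of a factor known for nuclear genes of mitochondria. These genes were chosen from the matches after their levels were known.
Mrpl33, ETS motif, chr6:30553977-30554006, minus strand: gccacatgccCCGGAAGcagttgttgagct
Mrpl17, NRF1 motif, chr1:169575735-169575764, minus strand: aggctctgatGCGCATGCGcaagcacccct
Mrpl44, NRF1 motif, chr9:88554908-88554937, plus strand: agaagcacttGCGCATGCGcactatgctag
Mrps18a, YY1 motif, chr9:22367361-22367390, minus strand: gtgtgttcccAAGATGGCGgccctcagggc

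Promoters of 300 bases, 250 before and 50 from the start on, were matched by symbol for 70 cytosolic and 59 mitochondrial genes, with the first listed start of each gene. A C followed by at least 4 pyrimidines, with the C within 10 bases of the start on the transcript strand, was present in 70.0% of cytosolic and 35.6% of mitochondrial promoters, against 28.8% of all 27457 promoters and 28.7% of those of 9176 genes tested here. Runs of 8 or more bases were in 50% of cytosolic promoters and 1.69% of mitochondrial ones (Mrps9 alone), against 7.33% of all promoters. The classes therefore stood far apart in the longer run and less so in the shorter one, and Rpl41, which had the highest level of all, had no such run in this window.

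The motifs of mitochondrial promoters were searched on both strands, with no overlap among them counted. The ETS motif CCGGAAG was in 33.9% of mitochondrial and 30% of cytosolic promoters, against 9.22% of all promoters and 17.9% of those of genes tested. The NRF1 motif GCGCANGCG was in 16.9% and 12.9%, against 6.26% and 13.6%. The YY1 motif AAGATGGCG was in 15.3% and 5.71%, against 1.93% and 4.01%. TATAAA was in 11.9% and 12.9%, against 14.3% and 6.75%. The ETS motif was thus about as frequent in both classes, and the YY1 motif was more frequent in the mitochondrial class. A match is a description of letters, not of a bound site.

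Levels differed between the classes far more than between the viruses. Cytosolic ribosomal protein mRNAs were among the most abundant of the cells: their median level was 584 FPKM (lowest 0.470, highest 1550), above that of 98.8% of all genes tested, and 31 of the 100 genes with the highest mean were cytosolic ribosomal proteins. The median of the mitochondrial class was 43.4 FPKM (11.0 to 214), above that of 82.4% of genes, and 0 of its members were among those 100. The level plot shows little overlap between the standard 40S and 60S genes on one side and the mitoribosomal genes on the other.

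**Figure D1:**
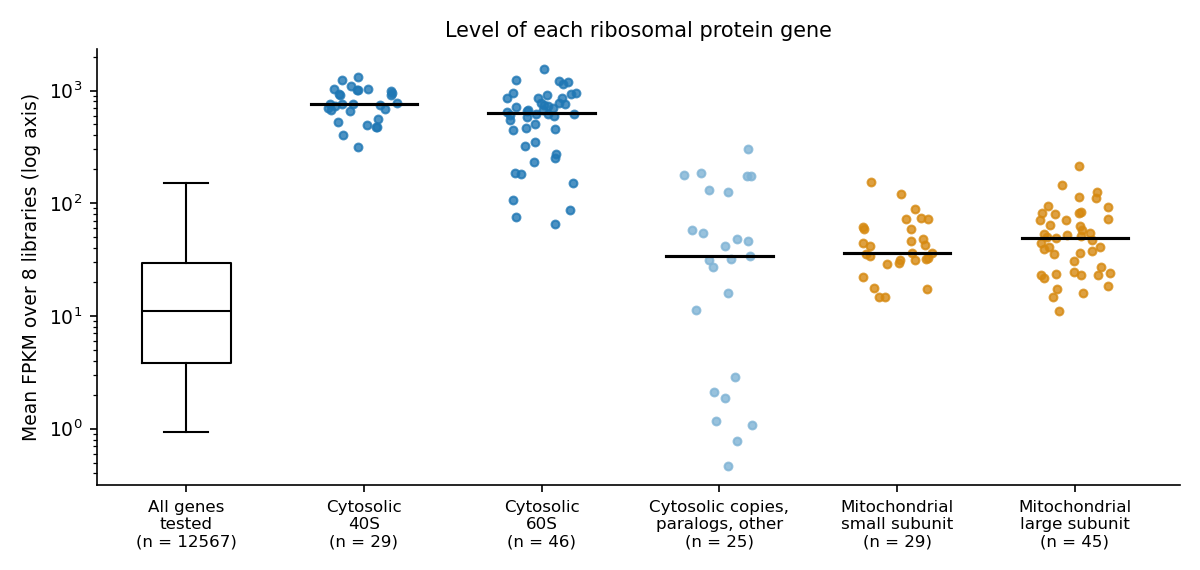
Mean FPKM over the 8 libraries (log axis) for each gene, by kind of ribosomal protein; black lines are medians, and the box for all genes tested shows the median and quartiles with whiskers at the 5th and 95th percentiles. The 40S genes lie between 313 and 1331 FPKM, and the mitoribosomal genes between 11.0 and 214 FPKM.

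The 40S genes were the most even set, with a median of 755 FPKM and a coefficient of variation of 31.8% over genes. The 60S genes had a median of 635 FPKM and a coefficient of variation of 54.9%. Their spread includes 6 genes that span under 1000 bases in the table, at 65.3 to 620 FPKM (median 97.5), described below. The large and small mitoribosomal subunits had medians of 48.7 and 36.0 FPKM, with coefficients of variation of 70.3% and 65.6%. Within each subunit mRNA levels thus differed several-fold between genes.

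Rpl41, whose product is the smallest and most basic protein of the 60S subunit, had the highest level. Its FPKM was 1289, 1353, 1622 and 1504 in LacZ 1 to 4 and 1590, 1506, 1596 and 1939 in HectD3 1 to 4. The groups overlapped, LacZ 1 was lowest and HectD3 4 highest. Rps27 (a zinc-binding 40S protein), Rplp0 (the base of the 60S stalk that recruits elongation factors), Rps29 and Rpl21 followed, at means of 1331, 1243, 1240 and 1223 FPKM. Rps29 and Rplp0 differ by less than the spread between libraries (SD 43.2 and 89.4 FPKM with LacZ, n = 4). In the mitochondrial class Mrpl33 was highest, at 195, 222, 206 and 198 FPKM with LacZ and 217, 205, 225 and 246 FPKM with HectD3. Mrps21, Mrpl54, Mrpl17 and Mrps6 followed, at means of 155 to 121 FPKM. The lowest 5 were Mrpl1, Mrpl40, Mrps10, Mrps35 and Mrpl46, at means of 11.0 to 16.0 FPKM. All 5 were low in every library.

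The lowest standard genes of the 60S subunit had short spans in the table, some of them on another chromosome than in GRCr8. Rpl38, Rpl35a, Rpl8 and Rpl37 had means of 65.3, 75.2, 87.5 and 107 FPKM, and each spans under 1000 bases in the table: 303 bases on chromosome 2 for Rpl38, 348 on chromosome 1 for Rpl35a, 832 on chromosome 3 for Rpl8 and 347 on chromosome 10 for Rpl37. In GRCr8, Rpl38, Rpl35a and Rpl37 lie on chromosomes 10, 11 and 2, and Rpl8 was not matched. The next lowest, Rpl7 at 151 FPKM, spans 7310 bases and breaks this pattern, and Rpl30, at 180 FPKM, spans 461 bases. In all, 6 of the 46 genes of the 60S subunit spanned under 1000 bases, with a median of 97.5 FPKM, against 667 FPKM for the other 40, although Rpl36 among the short ones was at 620 FPKM. Of the 25 copies, paralogs and other genes, 19 spanned under 1000 bases, with a median of 31.5 FPKM. Ribosomal protein genes have many near-identical copies in rodent genomes, and reads that fit several copies may be split among them, so the level of any gene with a copy is uncertain. No source used here names the genome build of the table.

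Some symbols pool loci. Of the cytosolic genes, 8 hold more than 1 gene ID: Rpl13a, Rpl21, Rpl32, Rpl39, Rpl7a, Rps27a, Rps4x and Rps6. Rpl21 has 4 transcripts on 4 chromosomes, and the one on chromosome 12 carries 72.2% of its FPKM. For Rps4x, a 40S protein, the split among its 2 transcripts on chromosome X moved between libraries: Rps4x-001 was at 43.6 FPKM in LacZ 1 and 48.0 FPKM in HectD3 2 but at 343 to 417 FPKM in the other 6 libraries. Rps4x-201 was at 839 and 864 FPKM in those 2 libraries and at 434 to 559 FPKM in the others. Summed over all 3 transcripts of the symbol, the gene stayed between 1013 and 1263 FPKM, so the split moved much and the sum little.

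Paralogs with a role in some tissues were measured beside their partners. Rpl22l1, which can take the place of Rpl22, was at 23.7% to 30.5% of the level of Rpl22 with LacZ and at 26.7% to 32.3% with HectD3. Rps27l, a paralog that is a p53 target in human cells, was at 12.6% to 13.5% of Rps27 with LacZ and 12.6% to 14.5% with HectD3. Rpl36al was near its partner Rpl36a, at 106% to 114% and 99.5% to 115%. Rpl7l1 was at 38.9% ± 2.30 and 38.8% ± 3.03 of Rpl7 (SD, n = 4). Rpl7 itself was low for a 60S gene, at a mean of 151 FPKM against the 60S median of 635 FPKM, and Rpl7l1 had a mean of 58.4 FPKM. Rpl10l and Rpl39l, known from mouse for their part in male germ cells, were at 1.02% ± 0.0774 of Rpl10 and 0.233% ± 0.102 of Rpl39 with LacZ (SD, n = 4). Rps4y2 was at 1.48% ± 0.168 of Rps4x. In each pair the ranges of both viruses overlapped. Rps27a, a fusion of ubiquitin with a 40S protein, had a mean of 1029 FPKM. Fau, a fusion of a ubiquitin-like protein with a 40S protein that lies outside the name rule, was at 42.8 FPKM with LacZ and 49.1 FPKM with HectD3.

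Across libraries the cytosolic class moved largely as a block. Its sum was 47849, 51268, 54583 and 51553 FPKM in LacZ 1 to 4 and 54009, 51035, 53419 and 64134 FPKM in HectD3 1 to 4. LacZ 1 was lowest and HectD3 4 highest, and the other 6 libraries lay within 51035 to 54583 FPKM, with both viruses among them. As a share of all FPKM this was 8.75%, 9.29%, 9.69% and 9.39% with LacZ and 9.51%, 9.20%, 9.37% and 10.8% with HectD3. The mean share was 9.28% ± 0.392 with LacZ and 9.71% ± 0.720 with HectD3 (SD, n = 4). Without HectD3 4 it was 9.36% ± 0.156 with HectD3 (SD, n = 3), a difference below the spread between the LacZ libraries.

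The mitochondrial class had another order. Its sum was 3982, 4128, 3819 and 3617 FPKM in LacZ 1 to 4 and 3970, 3738, 4002 and 4398 FPKM in HectD3 1 to 4, or 0.728%, 0.748%, 0.678% and 0.659% of all FPKM with LacZ and 0.699%, 0.674%, 0.702% and 0.739% with HectD3. LacZ 2, HectD3 4 and LacZ 1 had the highest shares, and the groups overlapped throughout. The mean share was 0.703% ± 0.0418 with LacZ and 0.703% ± 0.0269 with HectD3 (SD, n = 4). The ratio of the cytosolic to the mitochondrial sum was 12.02 and 12.42 in LacZ 1 and 2, 14.3 in both LacZ 3 and LacZ 4, and 13.6, 13.7, 13.3 and 14.6 in HectD3 1 to 4. The LacZ libraries thus spanned most of the range that all 8 libraries covered, and HectD3 4 lay just above it.

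**Figure D2:**
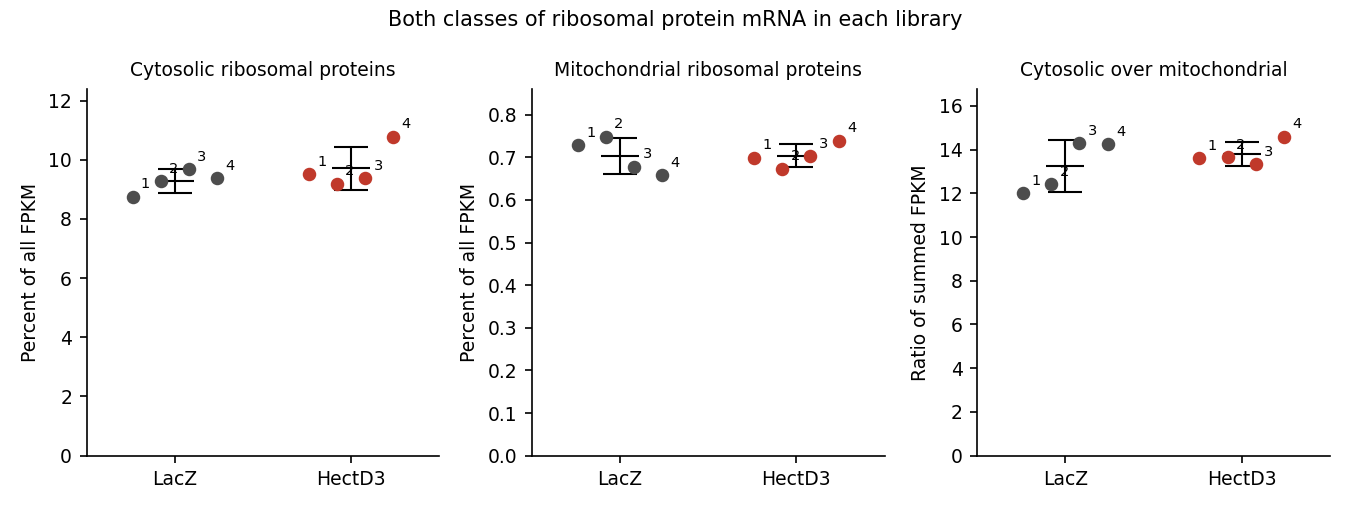
Share of all FPKM (percent) of the cytosolic and of the mitochondrial class, and the ratio of their summed FPKM, in each library; numbers are replicates, and bars are the mean and SD of 4 libraries. HectD3 4 has the highest cytosolic share, 10.8%, and LacZ 1 the lowest, 8.75%, while LacZ 1 and 2 have the lowest ratios, 12.02 and 12.42.

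The mRNAs that mitoribosomes translate were in the table too. The 13 mRNAs of the mitochondrial genome made up 9.72%, 8.23%, 7.35% and 6.94% of all FPKM in LacZ 1 to 4 and 7.58%, 7.85%, 8.69% and 10.4% in HectD3 1 to 4. HectD3 4 and LacZ 1 were highest and LacZ 4 lowest, so LacZ 4 was lowest both in these mRNAs and in the mitoribosomal class. The library preparation selected poly(A) tails, which mitochondrial mRNAs carry in short form, and its part in these shares was not tested.

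Gene by gene, HectD3 4 held the highest value of 89 of the 99 cytosolic genes tested, against 18% of all genes, and LacZ 1 the lowest of 73, against 17.4%. In the mitochondrial class HectD3 4 was highest in 34 of 74, LacZ 4 lowest in 34, against 11.6% of all genes, and LacZ 1 highest in 15 (20.3%), against 32.6% of all genes. LacZ 1, LacZ 2 and HectD3 4 were the 3 highest libraries for 22 of 74 mitochondrial genes (29.7%), for 4 of 99 cytosolic genes (4.04%) and for 21.5% of all genes. Genes of a class share the library, so these counts describe 8 libraries and are no test.

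**Figure D3:**
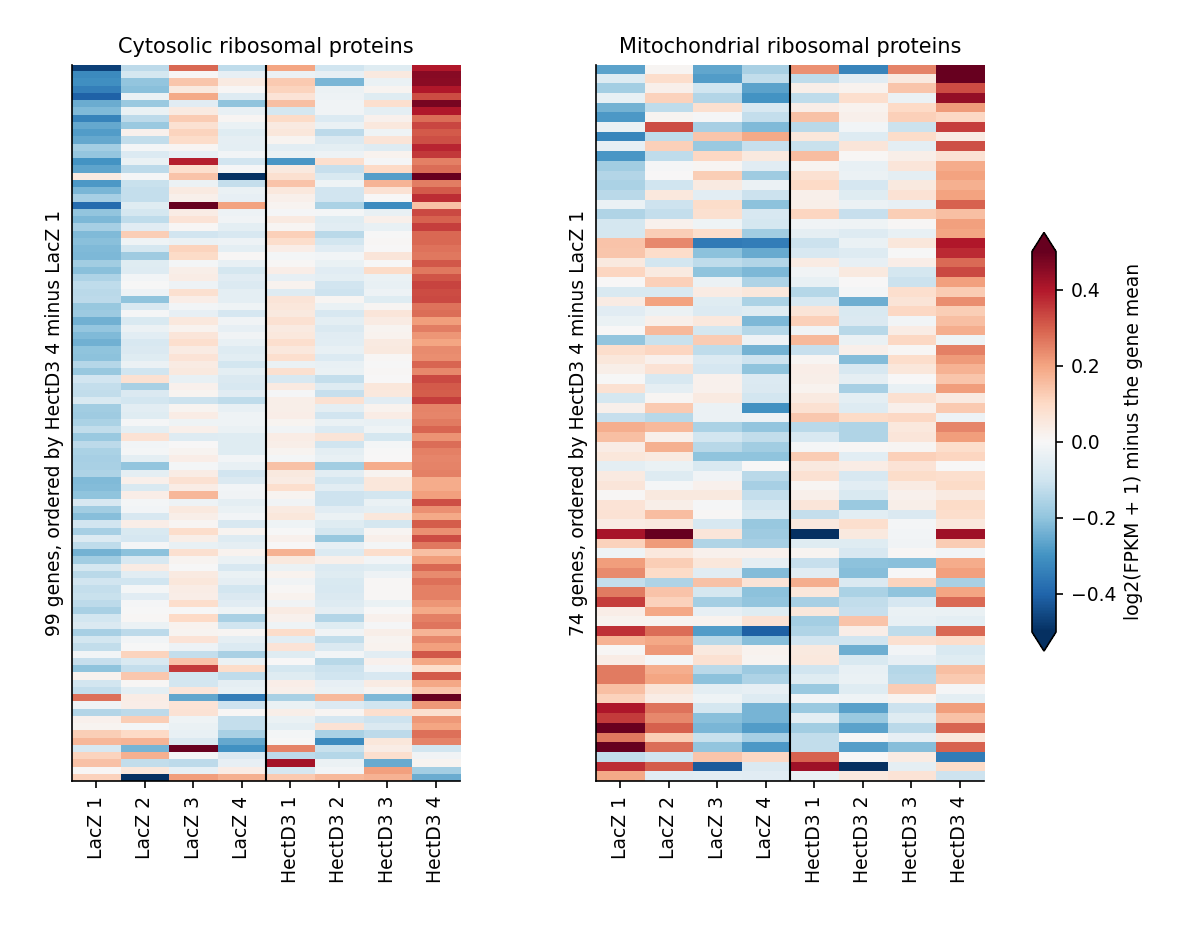
Deviation of log2(FPKM + 1) from the mean of each gene in the 8 libraries, for 99 cytosolic and 74 mitochondrial genes, ordered by HectD3 4 minus LacZ 1; red is above and blue below the gene mean, with colours limited at the ends of the scale. The HectD3 4 column is red for nearly the whole cytosolic class and the LacZ 1 column blue, while the lower part of the mitochondrial class is red in LacZ 1, LacZ 2 and HectD3 4.

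The 22 mitochondrial genes with those 3 libraries on top included Mrpl44, an RNase III-like large-subunit protein whose human gene is mutated in a mitochondrial cardiomyopathy. It was at 33.6, 28.3, 20.1 and 18.8 FPKM with LacZ and 21.2, 19.0, 19.9 and 28.7 FPKM with HectD3. LacZ 1, HectD3 4 and LacZ 2 were well above the other 5 libraries. Mrpl39, another large-subunit protein chosen here after its values were seen, was at 24.1, 20.9, 14.2 and 13.7 FPKM with LacZ and 14.8, 13.8, 15.2 and 20.8 FPKM with HectD3, with the same 3 libraries on top. Mrpl40 was at 19.5, 17.7, 13.6 and 12.2 FPKM with LacZ and 12.6, 11.8, 13.4 and 16.9 FPKM with HectD3. Mrpl49 went the other way for the LacZ libraries, at 34.8, 40.04, 48.4 and 50.2 FPKM, with 45.7, 41.9, 46.8 and 45.1 FPKM in HectD3 1 to 4. The mitochondrial class therefore did not move as a block. Of the 4 cytosolic genes with this order, Rpl5 and Rpl7a carry standard names, and Rpl5l1 and Rps4y2 are copies. Rpl5, which carries 5S rRNA into the 60S subunit, was at 708, 768, 656 and 641 FPKM with LacZ and 670, 653, 662 and 864 FPKM with HectD3.

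Cytosolic genes with and without a pyrimidine run led by a C within 10 bases of the annotated start moved alike over libraries. The median deviation from the gene mean in LacZ 1 was -0.17 on the log2 scale for 35 genes with a run of 8 or more and -0.16 for 20 genes with none, and in HectD3 4 it was 0.25 and 0.26. Their median levels were 662 and 634 FPKM. The shift of these libraries was thus of like size in genes with the longer run and with none, without a test. Some genes counted as having none, such as Rps3 and Rpsa, hold a pyrimidine run that begins further upstream. The split therefore does not sort the genes by their TOP motif, and the part of that motif was not tested.

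The virus comparison called no ribosomal protein gene. In limma on log2(FPKM + 1), HectD3 minus LacZ, 0 of 99 cytosolic and 0 of 74 mitochondrial genes passed an adjusted p of 0.05, where 0.00796% of all 12567 genes tested did, Hectd3 alone. The smallest adjusted p of a member was 0.596 in limma. At an unadjusted p under 0.05, 2 cytosolic and 2 mitochondrial genes were higher with HectD3 and 0 of either class were lower, against a background of 2.87% of all genes higher and 4.28% lower. By that background about as many members were higher as in the rest of the genes. The background itself depends on the scaling: 538 genes were lower and 361 higher as deposited, and 747 lower and 176 higher when each library was rescaled to the same total (TPM). The groups did not overlap for 3 cytosolic and 2 mitochondrial genes, all higher with HectD3, against 2.44% of all genes higher and 2.81% lower.

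Most cytosolic genes nevertheless had a fitted value above 0, and none of them singly passed. Of 99 genes, 92 were above 0, among them 29 of 29 of the 40S and 44 of 46 of the 60S subunit. Over all genes tested 5588 of 12567 were above 0. The cytosolic median log2 difference was 0.11, against -0.02 over all genes tested. In the mitochondrial class 48 of 74 were above 0 with a median of 0.04. Genes of a class share the libraries, so these counts are no test. HectD3 4 carried much of the cytosolic median, which was 0.05 without that library. With LacZ 3 and 4 against HectD3 1 to 3 it was 0.00. The mitochondrial median was below 0, at -0.01, on the TPM scale, and it was 0.01 without HectD3 4 and -0.00 without LacZ 4. The median standard error of a gene was 0.09 in either class, so a typical difference was near 1 standard error or below it.

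**Figure D4:**
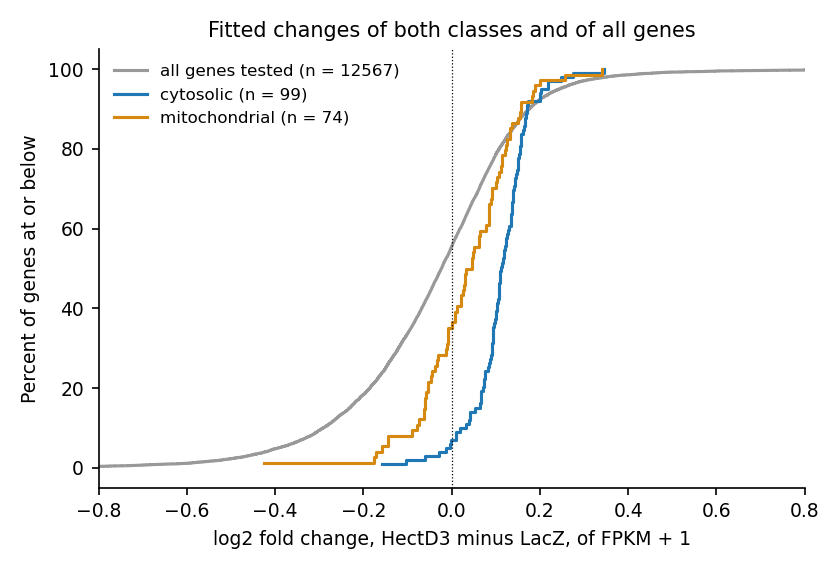
Cumulative percent of genes at or below each log2 fold change of FPKM + 1 (HectD3 minus LacZ) for all genes tested, cytosolic and mitochondrial ribosomal protein genes. The cytosolic curve is steep and centred at 0.11, the mitochondrial one at 0.04 and that of all genes at -0.02; the cytosolic median was 0.05 without HectD3 4 and 0.00 with LacZ 3 and 4 against HectD3 1 to 3, and the mitochondrial one was -0.01 on the TPM scale.

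Of the 5 cytosolic genes with the smallest p among the higher ones, only Rpl38 carries a standard name, and the others are copies, paralogs or other genes. Rps21-ps1, a copy of a 40S gene that spans 343 bases on chromosome 5, was at 34.5, 36.1, 39.6 and 35.7 FPKM with LacZ and 45.8, 40.7, 43.6 and 57.6 FPKM with HectD3. The groups did not overlap, and HectD3 4 was highest (log2 fold change 0.34, standard error 0.11, adjusted p = 0.596 in limma). Its parent gene Rps21 was at 371, 360, 409 and 382 FPKM with LacZ and 416, 386, 419 and 499 FPKM with HectD3, which overlap. Rpl35al1, a copy of a 60S gene, was at 44.4, 50.3, 53.3 and 50.01 FPKM with LacZ and 60.2, 53.6, 61.4 and 65.3 FPKM with HectD3, with no overlap (0.27, standard error 0.09, adjusted p = 0.596 in limma). Rps19bp1, whose product binds Rps19 and takes part in small-subunit assembly, was at 42.1 to 43.6 FPKM with LacZ and 44.3 to 58.8 FPKM with HectD3 (0.20, standard error 0.09, adjusted p = 0.708 in limma). Rps27l and Rpl38 overlapped between the groups, with log2 differences of 0.25 and 0.20.

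On the other side no cytosolic gene had an unadjusted p under 0.05. Those with the smallest p were Rpl10l, Rpl34-ps1, Rpl8, Rps15-ps2 and Rpl5l1, with log2 differences of -0.10, -0.16, -0.06, -0.03 and -0.01, and the groups overlapped for each. Rpl34-ps1 was at 23.5 to 45.9 FPKM with LacZ and 24.7 to 34.3 FPKM with HectD3, and without LacZ 3 its difference was 0.00. Rpl8, a protein of the peptidyl transferase region, was at 75.4, 80.0, 111 and 92.9 FPKM with LacZ and 81.7, 80.7, 86.1 and 92.5 FPKM with HectD3, and without LacZ 3 its difference was 0.05.

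Rpl32, a 60S protein, was the reference gene of the quantitative PCR in the study. It was at 654, 706, 790 and 748 FPKM with LacZ and 794, 717, 805 and 948 FPKM with HectD3. LacZ 1 and 2 were lowest, HectD3 4 was highest and the groups overlapped. The means were 724 ± 57.9 and 816 ± 96.3 FPKM (SD, n = 4), with a log2 difference of 0.17 (standard error 0.10) and an adjusted p of 0.724 in limma. Without HectD3 4 it was 0.09. The symbol sums the gene on chromosome 4 (147715473 to 147719072 in the table) with a copy of 450 bases on chromosome 6 that carries 13.3% of its FPKM. The primers of that assay, as listed in the supplement, are shown since they define what the reference measured.
Rpl32_Fw: CTGCTGATGTGCAACAAATCT
Rpl32_Rv: GCTGTGCTGCTCTTTCTACAAT

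Rpl3, a 60S protein at the peptidyl transferase centre and the partner of the muscle paralog named above, was at 582, 636, 541 and 526 FPKM with LacZ and 564, 583, 568 and 730 FPKM with HectD3. HectD3 4 stood apart from the other 3 HectD3 libraries, which lay within the LacZ range (log2 fold change 0.09, standard error 0.10, adjusted p = 0.805 in limma). Rpl39, a small protein of the nascent chain exit tunnel, had the largest spread of the standard 60S and 40S genes. It was at 531, 298, 567 and 555 FPKM with LacZ and 536, 548, 553 and 412 FPKM with HectD3. LacZ 2 and HectD3 4 were low and the other 6 libraries lay close together, the reverse of the class in HectD3 4.

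**Figure D5:**
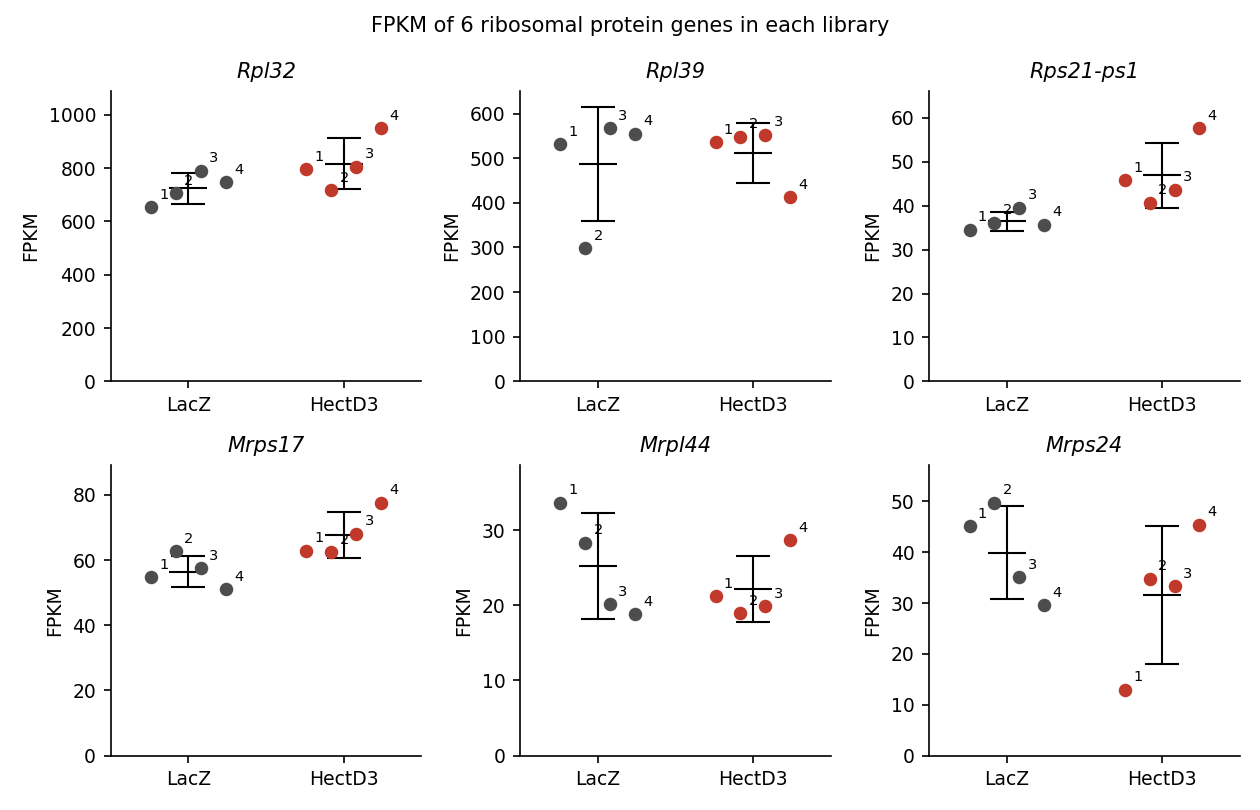
FPKM of 6 ribosomal protein genes in each library; numbers are replicates, and bars are the mean and SD of 4 libraries. For Rpl39 LacZ 2 (298) and HectD3 4 (412) lie below the others, for Mrpl44 LacZ 1, LacZ 2 and HectD3 4 lie above, and HectD3 1 is low for Mrps24 (12.99).

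In the mitochondrial class Mrps17, an RNA-binding protein of the small subunit, had the smallest p. It was at 54.7, 62.7, 57.5 and 51.1 FPKM with LacZ and 62.9, 62.5, 68.1 and 77.6 FPKM with HectD3. The groups overlapped only in LacZ 2 and HectD3 2 (log2 fold change 0.26, standard error 0.09, adjusted p = 0.671 in limma). Mrpl21, a large-subunit protein, was at 33.1, 41.0, 40.4 and 37.3 FPKM with LacZ and 45.1, 41.4, 44.2 and 43.8 FPKM with HectD3, with no overlap (0.20, standard error 0.08, adjusted p = 0.689 in limma). Mrpl35, of the large subunit, was at 36.2, 35.6, 38.5 and 38.6 FPKM with LacZ and 43.2, 42.1, 42.3 and 38.6 FPKM with HectD3, where HectD3 4 was above LacZ 4 by less than the last digit printed (0.16, standard error 0.07, adjusted p = 0.705 in limma). HectD3 4 was not the library that set Mrpl21 or Mrpl35. Mrpl20 and Mrps14 had log2 differences of 0.18 and 0.34 and overlapped between the groups.

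The mitochondrial genes with the smallest p among the lower ones were Mrps6, Mrpl1, Mrps24, Mrpl40 and Mrps28, with log2 differences of -0.14, -0.17, -0.43, -0.18 and -0.08, and the groups overlapped for each. Mrps24, a small-subunit protein, had the largest range over libraries of the members tested, on the log2(FPKM + 1) scale, at 45.1, 49.7, 35.1 and 29.6 FPKM with LacZ and 12.99, 34.8, 33.3 and 45.4 FPKM with HectD3. HectD3 1 alone was low, and its highest library was 3.83 times its lowest, against a median of 1.32 in the class. Mrps18b was also uneven, at 74.5, 71.0, 42.7 and 54.6 FPKM with LacZ and 77.3, 36.3, 55.7 and 61.2 FPKM with HectD3, with high and low libraries under both viruses. Mrpl37, Mrpl45 and Mrps22 varied least, with highest over lowest values of 1.10, 1.11 and 1.12. The median of this ratio was 1.36 in the cytosolic class and 1.58 over all genes tested.

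Genes that build and regulate ribosomes were compared in lists of known function. None of their genes passed an adjusted p of 0.05, and the few named with an unadjusted p under 0.05 stand against 2.87% of all genes higher and 4.28% lower at that threshold. Over all genes tested 5588 of 12567 were above 0. Of 102 genes of ribosome assembly in the nucleolus and cytosol, 64 were above 0 with a median log2 difference of 0.03. Of the 102, 3 had an unadjusted p under 0.05, all higher, a share near the 2.87% of all genes. Of these, Nop10, a protein of the H/ACA particles that modify rRNA, was at 74.0 to 87.7 FPKM with LacZ and 90.1 to 100.5 FPKM with HectD3, and Utp11, of the small-subunit processome, at 18.03 to 21.8 and 22.2 to 27.5 FPKM. Neither overlapped, and both adjusted p-values were 0.671 or more in limma. Of 41 translation factors and other TOP mRNAs, 32 were above 0 with a median of 0.07, and 1 had an unadjusted p under 0.05, Vim, which encodes an intermediate filament and whose mRNA has a TOP start (591 to 709 and 719 to 803 FPKM).

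Of the 4 lists of the mitochondrial side, 3 had more genes below 0 than above, as did all genes tested (6979 of 12567 below 0, median -0.02). Of 27 genes of mitoribosome assembly 19 were below 0, with a median of -0.05, and of 16 mitochondrial translation factors 14 were below 0, with a median of -0.10. Mrm1, an rRNA methyltransferase of mitochondria, had an unadjusted p under 0.05 (5.403, 4.25, 3.52 and 3.38 FPKM with LacZ and 3.42, 2.38, 2.53 and 2.90 FPKM with HectD3), and LacZ 4 and HectD3 1 overlapped. Mtif2, the initiation factor of mitoribosomes, was at 13.6, 11.5, 7.90 and 6.74 FPKM with LacZ and 6.24, 7.47, 7.03 and 8.70 FPKM with HectD3, where LacZ 1 and 2 were high. Of 12 regulators of nuclear genes for mitochondria 10 were below 0, and Ppargc1b, a coactivator of such genes, had an unadjusted p under 0.05 (5.18 to 8.85 FPKM with LacZ, 2.45 to 6.22 FPKM with HectD3). Of 4 mitoribosomal subunits with other names 3 were above 0, with a median of 0.08, and Dap3 among the 4, which binds GTP in the small subunit, was at 32.7 to 41.9 and 35.5 to 47.8 FPKM. Regulators of the synthesis of ribosomal proteins, 19 genes with mTOR signalling among them, had a median of 0.00, with 9 below and 10 above 0, and Myc was at 5.51 to 11.6 FPKM with LacZ and 7.11 to 16.6 FPKM with HectD3. Of 9 genes that respond to unassembled ribosomal proteins or stalled ribosomes, Map3k20, the kinase ZAK of the ribotoxic stress response, had an unadjusted p under 0.05, at 45.0, 51.7, 40.9 and 49.3 FPKM with LacZ and 26.3, 38.4, 46.5 and 29.5 FPKM with HectD3, and the groups overlapped in HectD3 3. The p53 target Cdkn1a was at 89.5 to 120 and 108 to 134 FPKM.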

How the data were processed

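The authors used cutadapt for trimming, HISAT2 for alignment, and StringTie and Ballgown for transcript FPKM. Their versions, genome build and annotation were not given in the sources used here. Per the labels, 4 LacZ and 4 HectD3 libraries were measured, and the deposited FPKM table holds 15976 transcripts and no counts. In any pair of libraries 72 or more low transcripts could be compared, and no more than 3.85% of them had a common ratio, so depth is unknown and no counting error is given. Total FPKM was 546642 to 563051 in LacZ and 554960 to 595172 in HectD3 libraries. No values were identical between libraries (correlations 0.962 to 0.995).

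FPKM was summed per gene symbol. All 12567 genes whose mean reached 0.5 FPKM entered limma 3.58.1 (R 4.3.3, trend) on log2(FPKM + 1), two-sided, with Benjamini-Hochberg adjustment over them. Fold changes are on that scale, which understates changes of low genes. The fit was run on simulated data with independent noise for each gene. Those data hold no spread shared by whole libraries, so they cannot show how the fit handles it. Samples were grouped by their labels, which do not say whether libraries came from separate cultures, so p-values measure the spread between these libraries. Members, lists and tests were chosen with earlier results of these data known. Genes were named by rule: of each class the 5 smallest p in each direction, the 5 highest and lowest levels, the 3 largest ranges, paralog pairs, Rpl32 and Rpl3; others are said to be chosen later or were taken for a position, a spread or a count. Promoters are from RefSeq (GRCr8), matched by symbol; 6 matched genes lie on another chromosome than in the table. Python 3.11.15 and pandas 2.3.3 were used.

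Alternatives were other pseudocounts, filters, scalings (TPM, median ratio, quantile), the most abundant transcript, other options of limma, an ordinary linear model, the replicate number as a block, leaving out each library, LacZ 3 and 4 against HectD3 1 to 3, and the first principal component as a covariate.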

Additional observations from a re-analysis of the deposited data

Results flagged for a closer look

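Rpl3 was at 730 FPKM in HectD3 4, far from the 564 to 583 FPKM of the other 3 HectD3 libraries: the gap to the nearest of them was 0.886 of the whole range of the group, past the critical value of Dixon's test, which chance passes in about 1 in 20 groups. The same library was past that critical value above the other 3 for 20 of 99 cytosolic genes and 5 of 74 mitochondrial genes, and below them for 1 cytosolic gene. The share of all genes tested that pass this rule was not computed. Nothing particular to these classes can therefore be read from the counts.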

How the results depend on the processing

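No ribosomal protein gene passed an adjusted p of 0.05 under any of 24 settings (smallest 0.129). Over all genes the count passing was 1; it was 2 with a mean of at least 5 FPKM, with TPM and with TPM over genes that are not ribosomal proteins, 3 with median-ratio scaling, quantile normalization or the first principal component, 11 with library weights, 0 in the ordinary linear model and 8 with LacZ 3 and 4 against HectD3 1 to 3, and 1 to 5 leaving out 1 library (5 without HectD3 4). At an unadjusted p, the higher mitochondrial genes went from 2 to 1 with either TPM, quantile normalization or no trend. They were 10 with weights, 8 in the linear model and 13 with the principal component. With LacZ 3 and 4 against HectD3 1 to 3 they were 8. The range without 1 library was 0 (without LacZ 4) to 5 (without HectD3 2). The higher genes among all tested moved from 361 to 176 and 185 with either TPM, 449 with quantile normalization and 291 with no trend. Over all genes 769 were higher with weights, 826 in the linear model and 979 with the principal component. With LacZ 3 and 4 against HectD3 1 to 3, 644 of 12482 were higher. Without 1 library 220 to 442 of all genes were higher. The lower mitochondrial genes were 1 with either TPM and quantile normalization, and 0 to 1 without 1 library. Over all genes 747 and 737 were lower with either TPM, 464 with quantile normalization and 329 to 865 without 1 library. The lower cytosolic genes were 2 with weights, where 681 of all genes were lower. They were also 2 with LacZ 3 and 4 against HectD3 1 to 3, where 539 of all genes were lower. The higher ones were 1 in that comparison and 4 with the principal component, and 2 to 6 without 1 library (6 without LacZ 3 or HectD3 2). The cytosolic median was 0.001 with LacZ 3 and 4 against HectD3 1 to 3. Same-numbered libraries did not consistently deviate together (correlations -0.37, -0.01, 0.34 and -0.61). This cannot settle whether the numbers pair. LacZ 1 and 2 had nearly the same correlations with each HectD3 library, as did LacZ 3 and 4, and the labels name no pairs. With the replicate block, 0 mitochondrial and 2 cytosolic genes were higher, where 167 of all genes were. Of 527 values of 22 named genes, 14 changed direction, in 5 genes: Rpl34-ps1 (-0.312 to 0.002 without 1 library), Rpl8 (-0.138 to 0.046), Rps15-ps2 (-0.103 to 0.023; 0.045 with quantile normalization, 0.039 with LacZ 3 and 4 against HectD3 1 to 3), Rpl5l1 (-0.106 to 0.038; 0.012 median ratio, 0.027 weights, 0.070 linear model, 0.074 principal component) and Rpl3 (-0.002 with its most abundant transcript). The causes were not tested. With FPKM alone, depth sets no limit that can be stated.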
